A study of Mus musculus with 48 samples.

Results

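The CCN family is a group of secreted, cysteine-rich matricellular proteins, and its 6 mouse genes, Ccn1 to Ccn6, were followed here among the 54752 genes of the deposited expression matrix. The genes were picked by family membership, and the family itself was chosen by measured values of these same libraries, namely the changes of Ccn5 in heart LECs and in cardiomyocytes under angII and the change of Ccn2 in cardiomyocytes under angII+VEGFC. The members' values in those 3 comparisons are therefore given as a description, with no test, and how many members were called in them was fixed by that choice.

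RNA-seq was carried out on cells of 13 Prox1-eGFP mice of strain C57BL/6 by the labels (C57BL/6J in the study's methods), in which a Prox1 knock-in reporter marks lymphatic endothelium with eGFP. All mice carried an osmotic minipump for 5 to 6 weeks. The pump of the ctrl mice held bovine serum albumin, that of the angII mice held angiotensin II in albumin, and that of the angII+VEGFC mice held angiotensin II with VEGFCc156s, a form of the lymphatic growth factor VEGFC that acts through VEGFR3. From these mice came heart lymphatic endothelial cells (heart LECs), diaphragm LECs, heart blood endothelial cells (heart BECs) and a cardiomyocyte fraction, with 4 ctrl, 5 angII and 3 angII+VEGFC libraries for each population and 48 libraries in all. Age by the labels was 8 to 16 months for ctrl and angII and 8 to 15 months for angII+VEGFC, although the study's methods state ages in weeks. LECs and BECs were sorted as CD31+ CD45- cells with or without eGFP, and the cardiomyocytes were pelleted by slow centrifugation and not sorted, so that fraction could hold other cells of the heart.

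CCN proteins sit in the extracellular matrix, bind integrins, LRP receptors and heparan sulphate proteoglycans, and tune how cells answer to growth factors and to mechanical load. Most are built from an IGF-binding-protein-like domain, a von Willebrand factor type C repeat, a thrombospondin type 1 repeat and a C-terminal cystine knot. Ccn1 (Cyr61) and Ccn2 (Ctgf) are immediate early genes and classical targets of YAP and TAZ, the coactivators that work with TEAD factors downstream of the Hippo pathway. Ccn2 is best known in the heart as a companion of fibrosis. Ccn3 (Nov) is made by vascular cells, Ccn4 (Wisp1) was found as a Wnt1-induced gene, Ccn5 (Wisp2) opposes several effects of Ccn2, and Ccn6 (Wisp3) is the least studied member.

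The gene models show the main structural difference within the family. In the GENCODE annotation of GRCm38, the longest coding sequence of Ccn5 (chr2:163820861-163833146, + strand) had 753 bases in 4 coding exons. The longest coding sequences of the other members had 1044 to 1137 bases in 5 coding exons each, and Ccn5 is the member that lacks the C-terminal domain. Ccn1 lies at chr3:145646976-145649981 on the - strand and Ccn2 at chr10:24595442-24598683 on the + strand. Ccn3 at chr15:54745702-54754039 and Ccn4 at chr15:66891320-66923201 share a chromosome and the + strand. Ccn6 lies at chr10:39150970-39163794 on the - strand.

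RefSeq promoter windows of build GRCm38.p6 were at hand for 2 of the 6 members, and these are the most and the least abundant ones, so both are printed as the 250 bases before the start of transcription. The Ccn1 window is chr3:145649986-145650235 and the Ccn6 window is chr10:39163795-39164044, both read 5′ to 3′ on the - strand. Capitals mark the TEAD core CATTCC and the cAMP response element core TGACG, each searched on both strands, and the TATA box TATAAA, searched on the strand of the gene.
Ccn1: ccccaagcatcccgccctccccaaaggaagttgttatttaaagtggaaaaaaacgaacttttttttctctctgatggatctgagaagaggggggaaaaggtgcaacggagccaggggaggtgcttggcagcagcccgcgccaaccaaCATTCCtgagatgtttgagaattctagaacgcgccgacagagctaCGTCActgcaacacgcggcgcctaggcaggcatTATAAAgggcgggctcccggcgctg
Ccn6: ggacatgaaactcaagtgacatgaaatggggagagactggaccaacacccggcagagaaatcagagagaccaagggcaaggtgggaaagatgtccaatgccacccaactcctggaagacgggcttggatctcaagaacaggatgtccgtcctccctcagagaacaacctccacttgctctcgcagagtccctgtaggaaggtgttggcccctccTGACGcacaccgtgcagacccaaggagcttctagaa

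The Ccn1 window held the TEAD core at bases 103 to 98 before the start, the cAMP element core on the other strand at bases 58 to 54, and the TATA box at bases 25 to 20. The Ccn6 window held the cAMP element core at bases 36 to 32 and neither of the other motifs. Among 32841 promoter windows of the same length, 12.6% held the TEAD core, 17.8% the cAMP element core and 7.59% the TATA box. The CArG box of serum response factor was in neither window and in 1.47% of all windows. These matches describe letters and not bound sites.

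The labelled populations carried their markers, and markers of other cells as well. Levels are in TPM, a transcript abundance scaled to the library's total and to transcript length, so that genes can be compared. The summed TPM of 5 lymphatic markers was 1650 to 2674 in heart LECs and 4314 to 6825 in diaphragm LECs. It was 81.5 to 133 in heart BECs and 27.9 to 48.4 in cardiomyocytes. The sum of 5 blood endothelial markers was 12650 to 19370 TPM in heart BECs and 1779 to 3376 in the cardiomyocyte fraction. In heart LECs that sum was 1636 to 7169 TPM, and in diaphragm LECs 1406 to 2160. The sum of 6 cardiomyocyte markers was 8332 to 21530 in the cardiomyocyte libraries and at most 1078 elsewhere. Genes at 1 TPM or more numbered 12924 to 25896 per endothelial library and 13020 to 19306 per cardiomyocyte library. The highest of the latter was the angII+VEGFC library of mouse 8, and the other 11 cardiomyocyte libraries had at most 15816. Read counts were not analysed here, so depth is unknown. Differences are on the log2(TPM + 1) scale from limma, and a gene is called when its Benjamini-Hochberg adjusted p over all genes tested is below 0.05. Where groups are said not to overlap, every library of 1 group lay above every library of the other. The share of all genes that separated in this way is not given here. Such a separation is therefore a description, and nothing is read from how many members had it. In these bulk libraries, fewer cells of a type and less RNA per cell cannot be told apart.

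Ccn1 was the dominant CCN transcript of endothelium. Its mean was 1763 ± 376 TPM (SD, n = 12) in the LECs of the diaphragm, 1524 ± 255 in those of the heart, 1434 ± 298 in heart BECs and 829 ± 179 in the cardiomyocyte fraction. It made up 88.8%, 84.1% and 84.5% of the family's summed TPM in these endothelial populations and 44.1% in cardiomyocytes. Ccn2 came next in endothelium, at 226 ± 64.5 TPM in LECs of the heart, 197 ± 127 in BECs of the heart and 146 ± 38.2 in LECs of the diaphragm. In cardiomyocytes Ccn2 reached 1081 ± 752 TPM and 45.4% of the family's transcripts. Every endothelial library had more Ccn1 than Ccn2, while Ccn2 exceeded Ccn1 in 7 of the 12 cardiomyocyte libraries.

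The remaining members were lower. Ccn3 had means of 62.9 ± 17.2 TPM in diaphragm LECs, 47.6 ± 26.9 in heart LECs, 45.4 ± 24.6 in cardiomyocytes and 40.9 ± 13.6 in heart BECs, and every neighbouring pair in this order differed by less than 1 SD. Ccn5 ranged from 0 to 31.2 TPM over the 12 libraries of heart LECs, averaged 6.93 ± 8.31 in diaphragm LECs and 18.2 ± 17.9 in heart BECs, and reached 188 ± 125 in cardiomyocytes. Ccn4 averaged 2.52 ± 2.66, 2.54 ± 1.51 and 1.64 ± 1.10 TPM in LECs of the diaphragm, LECs of the heart and BECs, and 9.50 ± 6.74 in cardiomyocytes. Ccn3 exceeded Ccn5 in all 24 LEC libraries and in 9 of 12 heart BEC libraries, and Ccn5 exceeded Ccn3 in all 12 cardiomyocyte libraries. Ccn6 was listed at 0 in 32 of the 48 libraries and reached 1 TPM in 3 libraries, 2 of angII heart LECs and 1 of angII diaphragm LECs, with a highest value of 1.66 TPM. It did not pass the filter of 1 TPM in 3 libraries within any population, so 5 of the 6 members were tested for treatment. In the fits that held both LEC populations it passed through those 3 angII libraries alone, so nothing is read from Ccn6 there.

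**Figure D1:**
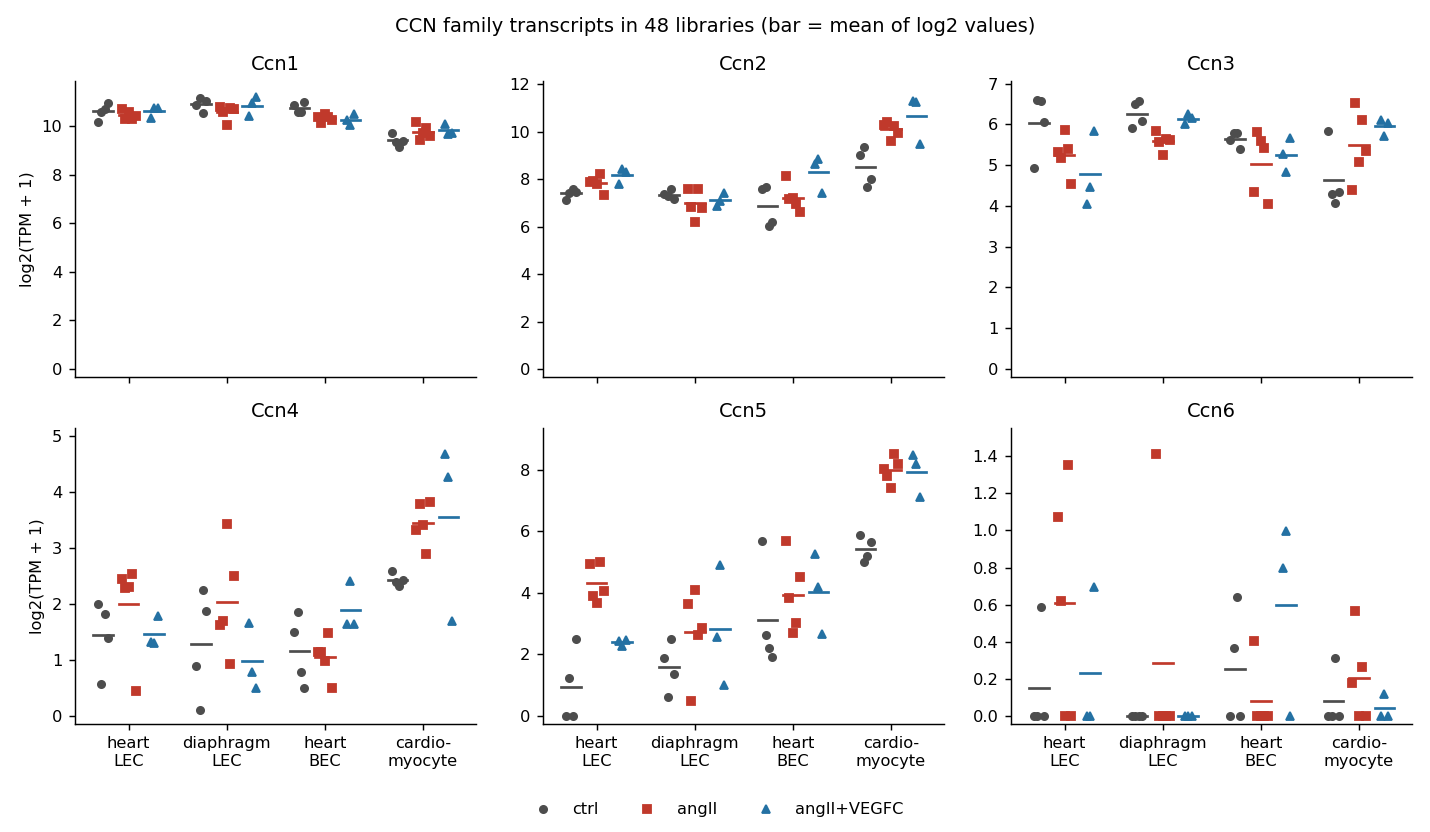
Level of each CCN member in log2(TPM + 1) (y axis) by population (x axis), with 1 point per library, coloured by treatment, and the mean of the log2 values as a bar. Ccn1 is the highest member in every endothelial population, Ccn2, Ccn4 and Ccn5 are highest in the cardiomyocyte fraction, and Ccn6 stays below 1.5.

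Ccn2, Ccn4 and Ccn5 were higher and Ccn1 was lower in the cardiomyocyte fraction than in heart BECs. Ccn5 differed by 3.43 (SE 0.39, limma adjusted p = 1.93e-08), Ccn2 by 2.35 (SE 0.25, adjusted p = 4.81e-09) and Ccn4 by 1.84 (SE 0.26, adjusted p = 7.58e-07). Each of these was higher in the cardiomyocytes of 12 of 12 mice. These values include the treated cardiomyocytes on which the choice of the family rested, and in control mice alone the differences were smaller, at 2.32 (SE 0.64, adjusted p = 0.00778) for Ccn5, 1.66 (SE 0.12, adjusted p = 2.00e-06) for Ccn2 and 1.27 (SE 0.25, adjusted p = 0.00104) for Ccn4. Ccn1 differed by -0.79 (SE 0.12, adjusted p = 3.28e-06), or by -1.35 (SE 0.16, adjusted p = 3.60e-05) in control mice alone, and was lower in 12 of 12 mice. Ccn3 differed by 0.03 (SE 0.27, adjusted p = 0.935), and in control mice alone by -1.01 (SE 0.31, adjusted p = 0.0122). Thus 4 of 5 members were called, where 76.2% of the 23213 genes tested were called, so the share of members is near that of all genes. The median gene differed by -0.61, which lies close to the value of Ccn1. With quantile normalization Ccn1 was no longer called (-0.30, adjusted p = 0.0642) and Ccn3 was called as higher (0.82, adjusted p = 0.0128). Cardiomyocytes formed a sequencing batch of their own, so batch and population cannot be told apart there. All 10 fibroblast markers were also called as higher in the cardiomyocyte fraction, with a summed level of 2753 to 9312 TPM against 586 to 4484 TPM in heart BECs, and their part in the member differences was not tested. The 12 immediate early and dissociation genes, which respond to cell isolation, summed to 29220 to 45630 TPM in heart BECs. In cardiomyocytes they summed to 9149 to 14690 TPM. Per 100 TPM of these genes, Ccn1 averaged 4.18, 3.52 and 3.585 TPM in heart BECs of ctrl, angII and angII+VEGFC. In cardiomyocytes it averaged 5.95, 7.61 and 8.44 TPM in the same order. The part of these genes in the Ccn1 difference was not tested.

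Between the LECs and the BECs of the heart no difference of a CCN member was called. None of 5 members passed, where 23% of 29402 genes were called, and 1 member had an unadjusted p under 0.05. Ccn1 differed by 0.10 (SE 0.10, adjusted p = 0.481), Ccn2 by 0.39 (SE 0.19, adjusted p = 0.146) and Ccn3 by 0.10 (SE 0.23, adjusted p = 0.773). Ccn5 was the member with the largest estimate, at -0.98 (SE 0.46, adjusted p = 0.132), and was lower in the LECs of 8 of 12 mice. This estimate includes the angII heart LEC libraries whose Ccn5 led to the choice of the family. In control mice alone the Ccn5 difference was -2.17 (SE 0.90, adjusted p = 0.198).

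Ccn2 was lower in diaphragm LECs than in heart LECs. The difference was -0.63 (SE 0.16, adjusted p = 0.0243), and Ccn2 was lower in 10 of the 11 mice that gave both populations. In sequencing batch 1 the means were 144 ± 47.95 TPM in diaphragm and 215 ± 73.1 in heart LECs (n = 6 each), and in batch 2 they were 148 ± 30.0 TPM and 236 ± 59.6 (n = 6 each). By treatment, the diaphragm and heart means were 162 and 169 TPM in ctrl, 136 and 231 in angII, and 141 and 293 in angII+VEGFC. In ctrl mice alone the difference was -0.06 (SE 0.17, adjusted p = 0.909), and without the filter on low values the adjusted p over all mice was 0.0558. Among 6 members, Ccn2 was the 1 called, where 3.18% of 31319 genes were called. Ccn6 counts among the 6 only through its 3 angII libraries at 1 TPM or more, and nothing is read from it. With the mouse as a block over the 11 shared mice, Ccn2 (-0.54, SE 0.13, adjusted p = 0.0172) and Ccn1 (0.26, SE 0.07, adjusted p = 0.0339) were called, and Ccn3 was just short of it (0.66, SE 0.19, adjusted p = 0.0502). Ccn1 and Ccn3 were each higher in the diaphragm LECs of 10 of 11 mice. The 10 fibroblast markers summed to 202 to 1358 TPM in diaphragm LECs and 1247 to 2864 TPM in heart LECs. Per 100 TPM of these markers, Ccn2 averaged 53.35, 21.7 and 35.3 TPM in diaphragm LECs of ctrl, angII and angII+VEGFC. In heart LECs it averaged 8.66, 14.6 and 14.5 TPM in the same order. The part of fibroblast transcripts in the Ccn2 difference was not tested.

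**Figure D2:**
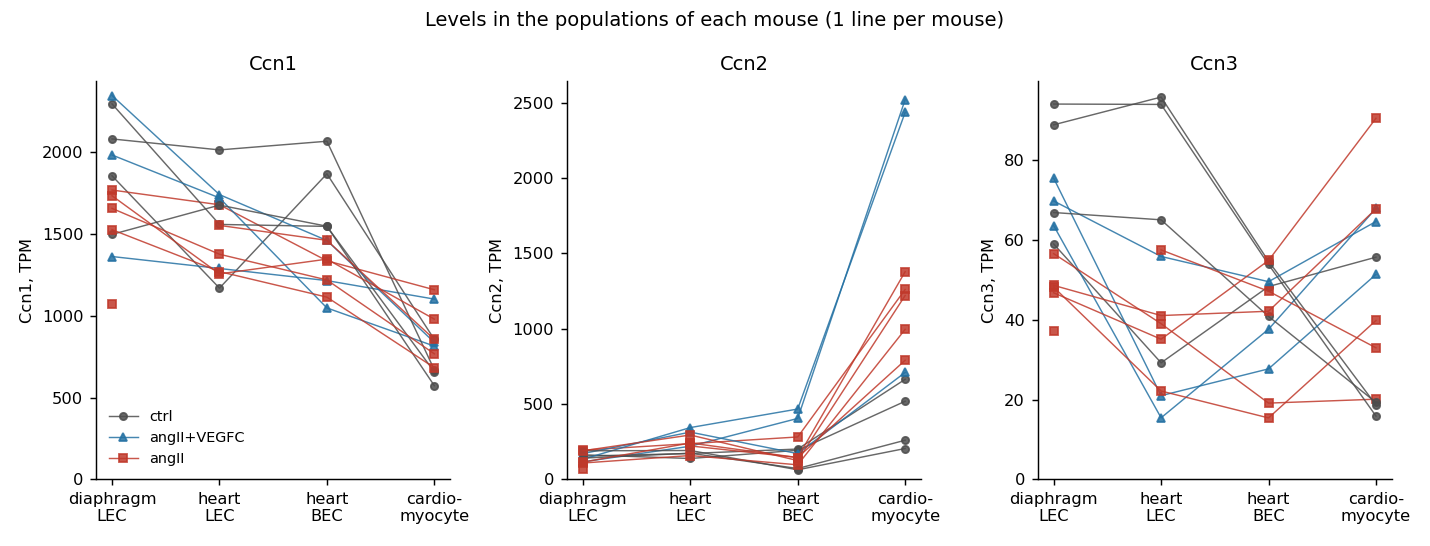
Ccn1, Ccn2 and Ccn3 in TPM (y axis) in the populations of each mouse (x axis), with 1 line per mouse coloured by treatment; the unconnected point is mouse 4, which gave only diaphragm LECs. Every line for Ccn1 falls from heart BECs to cardiomyocytes, and every line for Ccn2 rises there.

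In the cardiomyocyte fraction, Ccn5, Ccn2 and Ccn4 were all higher under angII than in ctrl, without overlap between the groups. Ccn5 stood at 30.8, 36.02, 48.9 and 57.2 TPM in ctrl and at 169, 222, 258, 290 and 362 TPM in angII. The lowest angII library thus lay far above the highest ctrl library. The means were 43.3 ± 12.0 TPM (SD, n = 4) and 260 ± 72.5 TPM (n = 5), a fitted log2 difference of 2.52 (SE 0.29). Ccn2, the fibrosis-associated member, was at 205, 260, 519 and 665 TPM in ctrl and at 791, 996, 1221, 1261 and 1379 TPM in angII, a difference of 1.66 (SE 0.38). Ccn4 was at 3.99 to 4.99 TPM in ctrl and 6.45 to 13.1 TPM in angII, a difference of 0.95 (SE 0.44). Ccn1 (688 ± 119 and 888 ± 186 TPM) and Ccn3 (27.4 ± 18.9 and 50.2 ± 28.5 TPM) had overlapping groups. The ctrl library of mouse 1 had Ccn3 at 55.7 TPM, beside 15.9 to 19.3 TPM in the other 3. The Ccn5 difference, beside 0.12 for the median gene, ranged from 2.37 to 2.69 over the 9 fits that left out 1 library each. The number of members called, 1 of 5 (Ccn5) where 0.0892% of 15691 genes were called, was fixed by the choice and nothing is read from it, and it was 0 without the angII library of mouse 3 or the ctrl library of mouse 9.

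In angII+VEGFC cardiomyocytes, Ccn2 and Ccn5 were above ctrl without overlap and the other members overlapped, and 1 library stood apart. Ccn5 was at 137, 292 and 354 TPM in angII+VEGFC, all above the ctrl libraries, a difference of 2.56 (SE 0.33). Ccn2 was at 710, 2437 and 2522 TPM, a difference of 2.04 (SE 0.44). Ccn4 was at 2.23, 18.3 and 24.7 TPM, a difference of 1.21 (SE 0.51), and its lowest library lay below every ctrl library. Ccn3 was at 51.4, 64.6 and 67.9 TPM, a difference of 1.35 (SE 0.47), and overlapped with the ctrl library at 55.7 TPM. The lowest library for Ccn2, Ccn4 and Ccn5 was in each case that of mouse 8. Without mouse 8 the differences were 2.68 (SE 0.31) for Ccn2, 2.05 (SE 0.27) for Ccn4 and 2.91 (SE 0.30) for Ccn5. Without mouse 2, the highest angII+VEGFC library for each of them, the differences were 1.32 (SE 0.46) for Ccn2, 0.50 (SE 0.57) for Ccn4 and 2.23 (SE 0.40) for Ccn5. The number of members called, 1 of 5 (Ccn5) where 0.663% of 15691 genes were called, was fixed by the choice and nothing is read from it. It was 3 without mouse 8 and 0 without the angII+VEGFC library of mouse 2 or 6 or the ctrl library of mouse 5. The median gene differed by 0.11. The ctrl libraries are shared with the angII comparison.

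In cardiomyocytes, no member was called between angII+VEGFC and angII. The difference of Ccn5 between angII+VEGFC and angII was 0.04 (SE 0.33) and that of Ccn2 was 0.37 (SE 0.44). Both are given as a description, since Ccn5 in the angII libraries and Ccn2 in the angII+VEGFC libraries led to the choice of the family. The difference of Ccn3 was 0.52 (SE 0.47) and that of Ccn4 was 0.26 (SE 0.51), each with a limma adjusted p of 0.9996. Of 15691 genes 0% were called, although 378 had an unadjusted p under 0.05, 0 of them members. The angII libraries are shared with the angII against ctrl comparison.

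**Figure D3:**
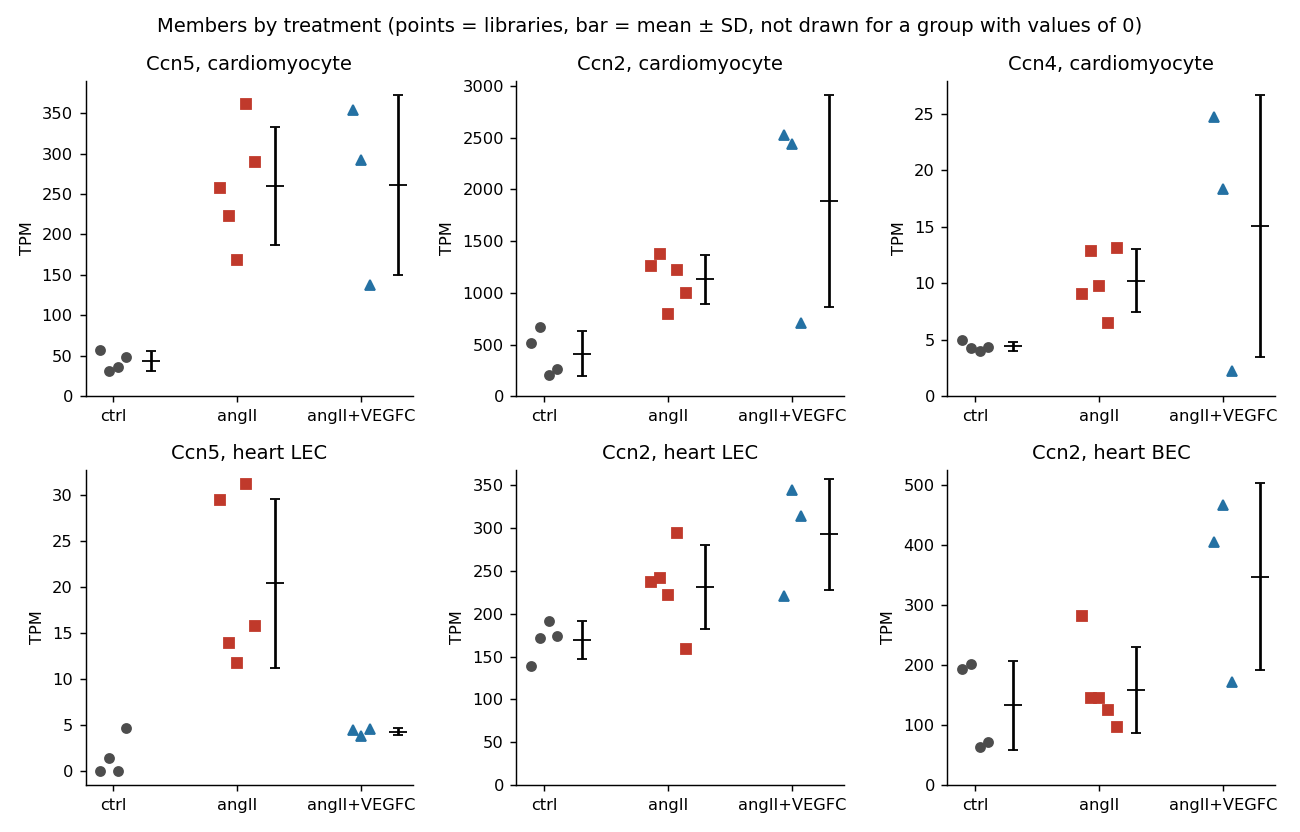
TPM (y axis) by treatment (x axis) for 6 pairs of member and population, with 1 point per library and the mean ± SD as a bar beside them (no bar for ctrl Ccn5 in heart LECs, where 2 libraries are listed at 0). Ccn5 in cardiomyocytes goes from at most 57.2 TPM in ctrl to at least 169 TPM in angII, and in heart LECs the 5 angII libraries, at 11.7 to 31.2 TPM, lie above the other 7, at 0 to 4.64 TPM.

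Fibroblast transcripts moved with these values in the cardiomyocyte fraction. The summed TPM of 10 fibroblast markers was 2753 to 3995 in ctrl, 5114 to 7058 in angII and 4052 to 9312 in angII+VEGFC, where 4052 was the library of mouse 8. All 10 markers had positive angII estimates, with a median difference of 1.10, and Mfap5, a microfibril protein, was called (1.72, SE 0.30, adjusted p = 0.0460). The summed TPM of 6 leukocyte markers was 507 to 655 in ctrl and 744 to 1496 in angII. Per 100 TPM of fibroblast markers, Ccn5 stood at 1.30 ± 0.25 TPM in ctrl, 4.10 ± 0.67 in angII and 3.56 ± 0.53 in angII+VEGFC. The range was 0.947 to 1.52 in ctrl and 3.14 to 5.12 in both treated groups together. Ccn2 stood at 12.2 ± 5.99, 18.2 ± 4.10 and 24.4 ± 6.22 TPM per 100 TPM of fibroblast markers, and its groups overlapped. Ccn4 stood at 0.134 ± 0.0085, 0.168 ± 0.055 and 0.181 ± 0.12, and overlapped too. The part of fibroblast and leukocyte transcripts in the member differences was not tested.

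In heart LECs, Ccn5 was highest under angII. It was listed at 0 in the ctrl libraries of mice 1 and 9 and at 1.36 and 4.64 TPM in the other ctrl libraries. The 5 angII libraries were at 11.7, 13.9, 15.8, 29.5 and 31.2 TPM, with no overlap, a fitted difference of 3.50 (SE 0.52). The angII+VEGFC libraries were at 3.78, 4.38 and 4.53 TPM, below every angII library and within the ctrl range. In batch 1, ctrl was listed at 0 (n = 2) and angII averaged 19.0 TPM (n = 3), and in batch 2 they averaged 3.00 TPM (n = 2) and 22.6 TPM (n = 2). Because of the values at 0, the fitted difference depended on the pseudocount and was 5.47 (SE 0.88) with 0.1 TPM, and the median gene differed by 0.23 with 1 TPM. The Ccn5 difference at 1 TPM ranged from 3.13 to 4.05 over the 9 fits that left out 1 library each. The number of members called, 1 of 5 (Ccn5) where 0.0261% of 26803 genes were called, was fixed by the choice and nothing is read from it. It was 0 with a pseudocount of 0.1 TPM, with no filter on low values, with quantile normalization, with genes detected as a covariate, in a fit of only these groups, and when any 1 of 6 libraries was left out, the angII libraries of mice 3, 14, 15 and 18 or the ctrl libraries of mice 5 and 9.

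The angII+VEGFC heart LECs had lower Ccn5 than the angII heart LECs, without overlap, but the difference was not called. It was -2.23 (SE 0.62), where the median gene differed by -0.37. Of 26803 genes 0% were called, and 2906 had an unadjusted p under 0.05. Among the 5 members, Ccn5 was the 1 with an unadjusted p under 0.05. The angII libraries of this comparison are those in which the rise of Ccn5 led to the choice of the family. The Ccn5 difference is therefore given as a description, and nothing is read from that count. Against ctrl, Ccn5 in angII+VEGFC differed by 1.27 (SE 0.60, adjusted p = 0.915) and the groups overlapped. Other cell types' transcripts moved in the same libraries. The summed TPM of 5 blood endothelial markers was 1636 to 3163 in ctrl, 3165 to 7169 in angII and 1988 to 2449 in angII+VEGFC. Mural cell markers, 8 in all, summed to 45.6 to 392.2 TPM in ctrl, 115 to 847 in angII and 78.7 to 259 in angII+VEGFC, and of its 8 genes 8 had positive angII estimates (median 1.47) and 1 had a positive estimate for angII+VEGFC against angII (median -0.97), with none called. The sum of 6 cardiomyocyte markers was 155 to 454, 172 to 1078 and 185 to 353 TPM in the same order. The fibroblast marker sum was 1540 to 2179, 1247 to 2864 and 1496 to 2722 TPM. Of the 10 fibroblast markers 7 had positive angII estimates, with a median of 0.89. The collagen gene Col1a2 was called as higher under angII (2.84, SE 0.42, adjusted p = 0.0293), and was the 1 called of the 10. The 3 with negative estimates were Dcn, Pdgfra and Postn (-0.53, -0.83 and -0.78), named after their values were seen. Per 100 TPM of fibroblast markers, Ccn5 stood at 0 to 0.213 TPM in ctrl, 0.783 to 2.29 in angII and 0.139 to 0.303 in angII+VEGFC. Genes at 1 TPM or more numbered 16131 to 24086 in ctrl, 19957 to 25896 in angII and 16756 to 18884 in angII+VEGFC. The part of these transcripts in the Ccn5 values was not tested.

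Ccn2 and Ccn3 had opposite estimates in the angII+VEGFC heart LECs. Ccn2 was at 139, 172, 174 and 192 TPM in ctrl, 159 to 295 TPM in angII, and 220, 314 and 344 TPM in angII+VEGFC. The angII+VEGFC libraries lay above all ctrl libraries, by 0.73 (SE 0.24, adjusted p = 0.915). Ccn3 was at 29.2 to 95.8 TPM in ctrl, 22.2 to 57.5 TPM in angII and 15.4, 21.0 and 55.9 TPM in angII+VEGFC, a difference from ctrl of -1.35 (SE 0.47, adjusted p = 0.915) with overlap, which ranged from -1.78 to -0.75 with 1 library left out. None of 5 members was called against ctrl, where 0% of 26803 genes were and the median gene differed by -0.13, and 2 had an unadjusted p under 0.05. In the description of angII against ctrl, the estimates were 0.45 (SE 0.20) for Ccn2, -0.71 (SE 0.41) for Ccn3, -0.15 (SE 0.17) for Ccn1 and 0.55 (SE 0.59) for Ccn4, all with overlap. The 12 immediate early and dissociation genes summed to 28410 to 38060 TPM in ctrl, 29110 to 31200 in angII and 25070 to 33940 in angII+VEGFC. Over the 12 heart LEC libraries that sum had a Pearson r of 0.863 with Ccn3 and -0.305 with Ccn2, on log2 scales. The part of these genes in the Ccn2 and Ccn3 values was not tested.

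**Figure D4:**
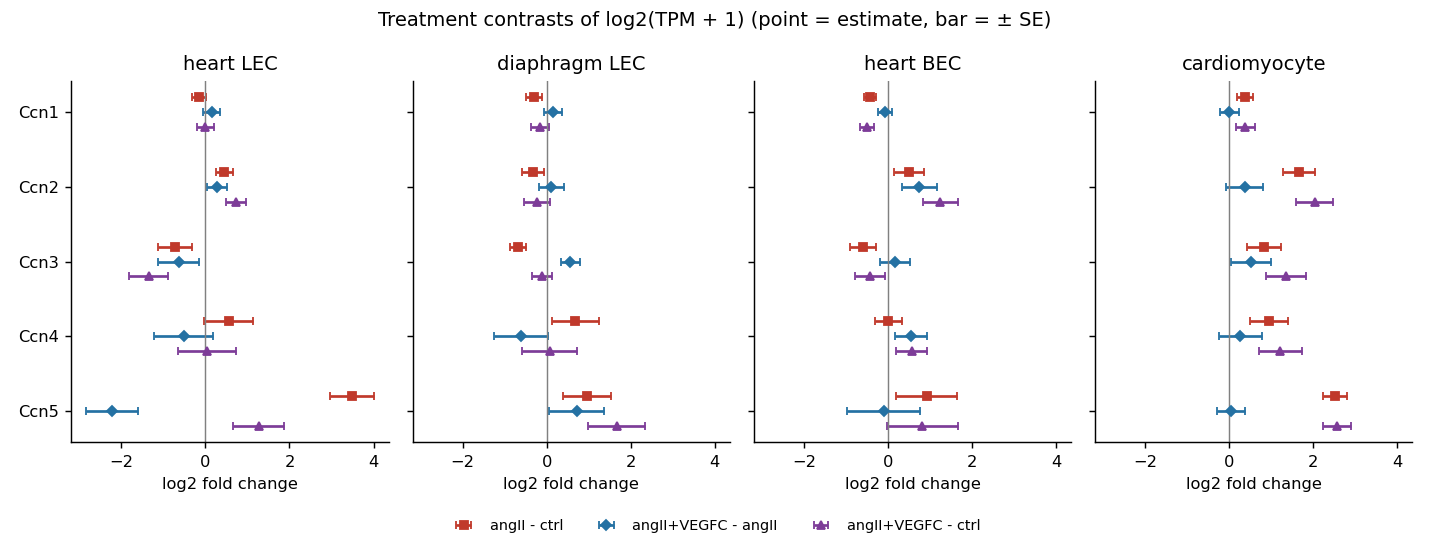
Fitted log2 differences (x axis, log2(TPM + 1) scale) of the 5 members tested (y axis) in each population, with 1 symbol per comparison and bars of ± 1 SE. The Ccn5 estimates for angII against ctrl are 3.50 in heart LECs and 2.52 in cardiomyocytes, and those of Ccn1 lie between -0.50 and 0.38 in every panel.

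In heart BECs, Ccn1 was lower in both treated groups, without overlap with ctrl, and was not called. Ccn1 was at 1545, 1546, 1866 and 2065 TPM in ctrl, at 1113, 1218, 1335, 1345 and 1460 TPM in angII, and at 1047, 1214 and 1459 TPM in angII+VEGFC. The differences from ctrl were -0.43 (SE 0.14, adjusted p = 0.809) and -0.50 (SE 0.17, adjusted p = 0.851). In batch 1 the ctrl and angII means were 1706 (n = 2) and 1338 TPM (n = 3), and in batch 2 they were 1805 (n = 2) and 1229 TPM (n = 2). The summed TPM of 12 immediate early and dissociation genes, a group that responds to cell isolation, was 38510 to 45630 in ctrl, 34870 to 38970 in angII and 29220 to 39310 in angII+VEGFC. The 8 mural cell markers summed to 307 to 386 TPM in ctrl, 151 to 292 in angII and 246 to 436 in angII+VEGFC, with 0 of 8 positive angII estimates (median -0.46). Per 100 TPM of the immediate early and dissociation genes Ccn1 stood at 3.43 to 4.84 TPM in ctrl and 2.90 to 3.83 TPM in angII, which overlapped. The part of both groups of transcripts in the Ccn1 values was not tested.

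Among the members in heart BECs, Ccn2 had the largest positive estimate for angII+VEGFC against ctrl. It was at 63.9, 72.4, 193 and 202 TPM in ctrl, 96.9 to 282 TPM in angII, and 171, 405 and 467 TPM in angII+VEGFC. Against ctrl the angII+VEGFC difference was 1.25 (SE 0.41, adjusted p = 0.851), and the groups overlapped. It was 0.55 without the angII+VEGFC library of mouse 2 and 1.78 without that of mouse 8. For angII against ctrl the estimate was 0.50 (SE 0.35, adjusted p = 0.965) for Ccn2 and 0.92 (SE 0.73, adjusted p = 0.972) for Ccn5. Ccn4 was at 2.10, 2.13 and 4.31 TPM in angII+VEGFC and 0.410 to 1.81 TPM in angII, without overlap, a difference of 0.56 (SE 0.38, adjusted p = 1). Ccn5 ranged from 2.73 to 50.4 TPM over the 12 libraries, and its 3 highest values, 50.4, 49.8 and 37.2 TPM, were in the 3 libraries with the highest fibroblast marker sums, 4484, 2910 and 3276 TPM, 1 from each treatment. No member was called in heart BECs, and the share of 21281 genes called was 0% for angII against ctrl, 0% for angII+VEGFC against angII and 0% for angII+VEGFC against ctrl. At an unadjusted p under 0.05 there were 1, 0 and 2 members and 1149, 551 and 1172 genes.

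In diaphragm LECs, Ccn3 was lower under angII than in both other groups, without overlap. It was at 59.0, 66.9, 88.9 and 94.1 TPM in ctrl, at 37.3, 46.8, 48.2, 48.6 and 56.6 TPM in angII, and at 63.6, 69.8 and 75.5 TPM in angII+VEGFC. The difference of angII from ctrl was -0.68 (SE 0.20, adjusted p = 0.297), that of angII+VEGFC from angII was 0.56 (SE 0.23, adjusted p = 0.567) and that of angII+VEGFC from ctrl was -0.11 (SE 0.23, adjusted p = 1). None of these was called. The angII libraries serve in the first and the second of these comparisons, so the opposite signs are not independent. In batch 1 the ctrl and angII means were 76.5 (n = 2) and 47.3 TPM (n = 3), and in batch 2 they were 77.9 (n = 2) and 47.7 TPM (n = 2). Ccn5 was at 0.520 to 4.64 TPM in ctrl, 0.392 to 16.0 TPM in angII and 0.982, 4.86 and 28.8 TPM in angII+VEGFC, with a difference of angII+VEGFC from ctrl of 1.67 (SE 0.68, adjusted p = 1). Of 23839 genes, 0% were called in angII against ctrl, 0% in angII+VEGFC against angII and 0% in angII+VEGFC against ctrl, and in each of these 1 member of 5 had an unadjusted p under 0.05, beside 3651, 2094 and 314 genes. The median gene differed by 0.28, -0.21 and 0.05, and genes at 1 TPM or more numbered 20062 to 23691 in angII against 12924 to 18116 in ctrl and 14963 to 18373 in angII+VEGFC. The part of that gap in the Ccn3 values was not tested.

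Whether a treatment acted differently on the family in the endothelial populations was examined through interaction terms over 36 libraries and 6 members. Ccn6 passed the filter here only through 3 angII LEC libraries, so its values are no test and nothing is read from them. The angII response of Ccn5 was 2.55 (SE 1.03) higher in heart LECs than in heart BECs and 2.30 (SE 1.04) higher than in diaphragm LECs, given as a description since the heart LEC response led to the choice. The angII response of Ccn2 was 0.83 (SE 0.45) higher in heart than in diaphragm LECs. The response to added VEGFCc156s of Ccn4 was -1.92 (SE 0.76, adjusted p = 0.700) in diaphragm LECs against heart BECs and -1.39 (SE 0.76, adjusted p = 0.768) in heart LECs against heart BECs. That of Ccn5 was -2.03 (SE 1.13) in heart LECs against heart BECs and -2.08 (SE 1.13) against diaphragm LECs, again a description, since it rests on the angII heart LEC libraries whose Ccn5 led to the choice. That of Ccn3 in heart against diaphragm LECs was -1.03 (SE 0.52, adjusted p = 0.988). No member was called in any of the 6 interactions. For the angII response the share of 32754 genes called was 0% for heart LECs against heart BECs, 0% for diaphragm LECs against heart BECs and 0.00611% for heart against diaphragm LECs. For the response to added VEGFCc156s the shares were 0%, 0% and 0% in the same order, with 2106, 2294 and 1600 genes and 0, 1 and 0 members at an unadjusted p under 0.05. The median gene differed by 0.24, 0.34 and -0.09 in the angII interactions and by -0.32, -0.27 and -0.04 in those of added VEGFCc156s.

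The pathway upstream of Ccn1 and Ccn2 and the receptors of the family showed no called treatment change. Of 21 other YAP/TAZ-TEAD target genes, 19 or 20 were tested per population, and none was called in any of the 12 treatment comparisons. The same held for all 14 core genes of the Hippo pathway and for the 12 or 13 tested of 13 CCN receptors and binding partners. Of all genes, only 0% to 0.663% were called in these comparisons, so nothing is read from the absence of calls in such short lists. At an unadjusted p under 0.05 there were 26 of 237 tests of target genes, 4 of 168 of Hippo genes and 12 of 150 of receptors, or 11.0%, 2.38% and 8.0%, beside 7.61% of all tests over the same comparisons. Under angII in cardiomyocytes the median difference of the target genes was 0.31 with 15 of 19 positive, beside 0.12 for all genes. Ankrd1, a cardiac stress-response target of YAP named here after its values were seen, averaged 387 ± 148 TPM in ctrl, 1030 ± 545 in angII and 1114 ± 663 in angII+VEGFC cardiomyocytes.

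Between populations, the counts of these partner genes stand beside the shares of all genes called, which were 23% for heart LECs against heart BECs, 3.18% for diaphragm against heart LECs and 76.2% for cardiomyocytes against heart BECs. Between heart LECs and heart BECs, 6 target genes were called as higher and 9 as lower of 20, although neither Ccn1 nor Ccn2 was called. Ptpn14 (1.33, SE 0.15, adjusted p = 1.42e-07), a phosphatase that binds YAP, was higher and the kinase gene Nuak2 (-1.58, SE 0.16, adjusted p = 2.97e-08) was lower. Of 12 receptor genes, 3 were higher, among them the vitronectin receptor subunits Itgav (1.20, SE 0.15) and Itgb3 (1.95, SE 0.20), which bind Ccn1 and Ccn2, and 6 were lower, among them the laminin receptor subunit Itga6 (-1.52, SE 0.11). None of 14 Hippo genes was called. Between diaphragm and heart LECs, Nt5e (-2.63, SE 0.33), Ccdc80 (-1.94, SE 0.31) and Gadd45a (-0.60, SE 0.17) among the 20 target genes and Itgb5 (-1.89, SE 0.31) and Itga6 (-0.57, SE 0.15) among the 13 receptors were called, all lower in the diaphragm like Ccn2. Between cardiomyocytes and heart BECs, 6 target genes were higher and 10 lower of 20, 1 Hippo gene was higher and 12 lower of 14, and 5 receptors were higher and 7 lower of 13, so that most genes of each list were called, as were most genes of all. Ankrd1 (6.64, SE 0.23) was higher like Ccn2, while Amotl2 (-2.02, SE 0.09), which encodes a protein that retains YAP outside the nucleus, was lower. Wwtr1 (-1.25, SE 0.10), which encodes TAZ, and the TEAD cofactor gene Vgll4 (-2.03, SE 0.08) were lower too. Among the receptors, the integrin subunits Itga6 (-2.76, SE 0.16) and Itgb1 (-1.36, SE 0.09), which pair to bind Ccn1 and Ccn2, and the CCN3 partner Notch1 (-2.92, SE 0.13) were lower. The median gene differed by -0.61 in that comparison.

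The genes whose levels ran most like a member over the 48 libraries were then looked up. The search took in 19690 genes whose mean reached 1 TPM. The 5 highest Pearson r with Ccn5 were those of the protease Mmp2 (0.92), Col5a1 (0.90), Mfap5 (0.90), Col1a1 (0.90) and Col3a1 (0.90). After subtraction of each population's mean, with r still taken over the 48 libraries together, Tmem119 (0.82), Mmp2 (0.77) and Col1a1 (0.76) led. For Ccn2 the order was Lhfp (0.92), the proteoglycan Bgn (0.89), Tnfrsf11b (0.88), Timp1 (0.88) and the TGF-beta-binding Ltbp2 (0.87), and after that subtraction Dbn1 (0.81), Ltbp3 (0.79) and Aebp1 (0.78). For Ccn1 the order was Dazap2 (0.91), Leprot (0.90), Rab7 (0.90), Pqbp1 (0.89) and Ecm2 (0.89), and after that subtraction Fxyd6 (0.72), Ccpg1 (0.71) and Add1 (0.71). Ccn4 ran most like the muscle gene Abra (0.82), the tendon transcription factor Scx (0.81), Xirp2 (0.80), the macrophage receptor Cd163 (0.80) and Nkd2 (0.79), and after that subtraction like Gpr176 (0.66), Tnip3 (0.63) and Kcna3 (0.63). Ccn3 had no close partner, and its highest values were those of Gas8 (0.55), Gm15635 (0.54), Mphosph6 (0.52), Pgpep1 (0.51) and Ptpn3 (0.50), and after that subtraction Tgfb1i1 (0.61), Crip1 (0.58) and Cd9 (0.58). Ccn2 and Ccn5 had an r of 0.79 with each other over the 48 libraries and of 0.48 after subtraction of the population means. Taken by population (12 libraries each), their r was negative for diaphragm LECs alone, at -0.232. It was 0.845 for cardiomyocytes, 0.626 for heart BECs and 0.428 for heart LECs. The choice of the family rested in part on both genes in treated cardiomyocytes. These r values are a description, since libraries of 1 mouse, population and batch are not independent and the cardiomyocyte libraries form a cluster of their own.

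**Figure D5:**
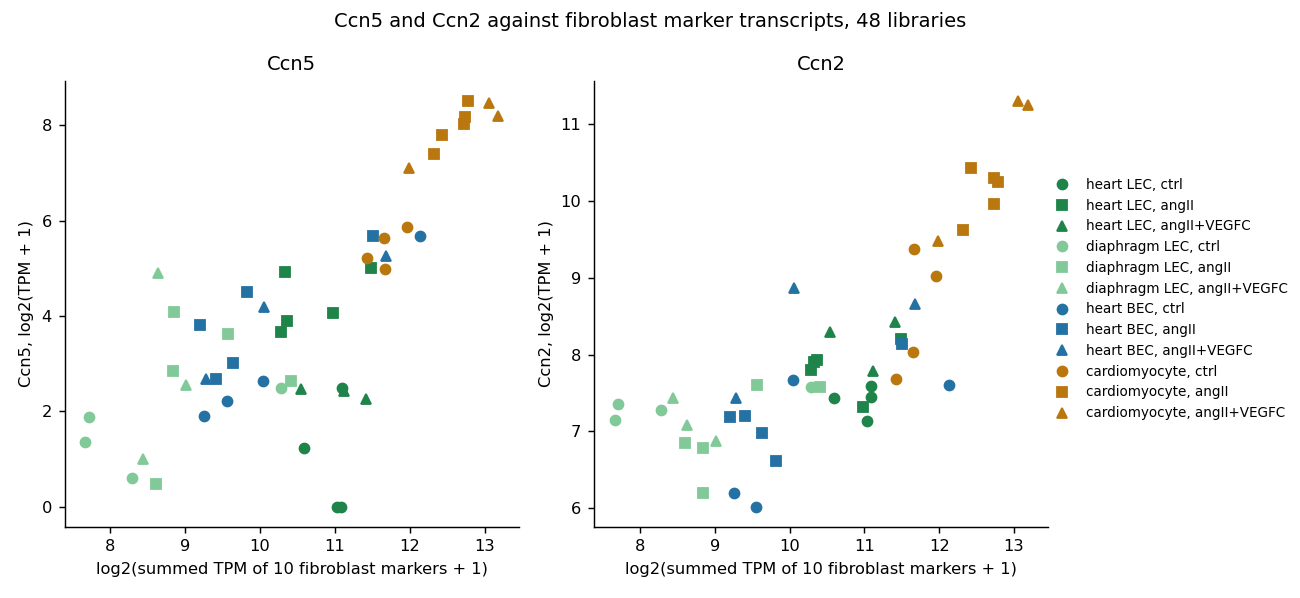
Ccn5 (left) and Ccn2 (right) in log2(TPM + 1) (y axes) against the summed TPM of 10 fibroblast markers on the log2(x + 1) scale (x axes) in the 48 libraries, with colour for population and symbol for treatment. The treated cardiomyocyte libraries lie at the upper right, and the ctrl heart LEC libraries have fibroblast marker sums of 1540 to 2179 TPM with Ccn5 at or below 4.64 TPM.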

How the data were processed

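The authors aligned reads to GRCm38 with STAR 2.5.3a and estimated transcript abundance with Salmon 0.12.0, per the labels and the study's methods, and deposited gene-level TPM. Per the labels, cDNA was made with a Smart-Seq ultra low input kit and libraries with Nextera XT.

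Ensembl IDs were matched to symbols by GENCODE M21 (54723 of 54752 genes). Genes that reached 1 TPM in 3 or more libraries were fitted as log2(TPM + 1) in limma 3.58.1 (R 4.3.3) with a mean-variance trend, with age and batch as covariates (age alone where cardiomyocytes were involved, and treatment added between populations) and Benjamini-Hochberg adjustment. Contrasts were made within each population, between 3 pairs of populations (24 libraries each) and as interactions in 36 endothelial libraries. No library lay beyond the study's limit of 3 SD in a principal component analysis. The fits were tested on simulated data. Alternatives changed the pseudocount, filter, covariates, normalization, block and libraries used. Mouse numbers are the labels' animal IDs, so libraries of 1 mouse pair across populations, although their deviations from group means correlated weakly (mean r 0.03 to 0.08). Each library came from 1 mouse.

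The members and gene lists were chosen with earlier results of these data known. A member's difference is given where its adjusted p was below 0.05, its absolute log2 difference was 1 or more, or its groups did not overlap, and otherwise for context. Likeness names the 5 genes with the highest r for each member and the 3 highest after subtraction of each population's mean, both over the 48 libraries. Of list genes past the test, at most 4 per list and comparison are named, by smallest p.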

Additional observations from a re-analysis of the deposited data

Results flagged for a closer look

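In 40 groups of 4 or 5 libraries, a library was compared with the rest of its group on the log2(TPM + 1) scale, and 2 groups had 1 library set far from the others. Chance alone gives about 1 such group in 20. Among ctrl cardiomyocytes, mouse 1 had Ccn3 at 55.7 TPM, and the next highest ctrl library was at 19.3 TPM. Among angII heart LECs, mouse 14 had Ccn4 at 0.353 TPM, and the next lowest library was at 3.87 TPM.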

How the results depend on the processing

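The number of members called moved with the setting in 5 comparisons and kept within 1.5 times its main value in the other 16, under every alternative run. For heart LECs, angII against ctrl, it went from 1 to 0 with a pseudocount of 0.1, with no filter, with quantile normalization, with genes detected as a covariate and in a fit of only those groups, and ranged from 0 to 1 with each library left out. For cardiomyocytes, angII against ctrl, it went from 1 to 2 with 1 surrogate variable or genes detected as a covariate, to 3 in a fit of only those groups and to 0 with no filter, and leaving out libraries gave 0 to 1, with 0 without angII mouse 3 or ctrl mouse 9. For cardiomyocytes, angII+VEGFC against ctrl, it went from 1 to 2 with 1 surrogate variable, no covariates or quantile normalization, to 3 with genes detected as a covariate and to 0 with no filter. Leaving out libraries gave 0 to 3, with 0 without angII+VEGFC mouse 2 or 6 or ctrl mouse 5, and 3 without angII+VEGFC mouse 8. For diaphragm against heart LECs it went from 1 to 0 in control mice only or with no filter, and to 2 with the replicate block, which pairs the libraries of a mouse and changed the call of no member in the other comparisons. For heart LECs against heart BECs it went from 0 to 1 (Ccn5, -1.64, adjusted p = 0.0293) with genes detected as a covariate. The cause was not tested. No fold change of a member listed for its size, call or separation in the main fit changed sign. Ccn3 in cardiomyocytes against heart BECs was not so listed (0.03) and was called with either sign. It was -1.01 in control mice only (limma adjusted p = 0.0122) and 0.82 with quantile normalization (limma adjusted p = 0.0128). Under quantile normalization Ccn1 was no longer called there, so the number of members called stayed the same while the members changed. Depth is unknown, so low values, such as those of Ccn6 (0 to 1.66 TPM) and of Ccn5 in ctrl heart LECs (0 to 4.64 TPM), have no stated precision.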

Other observations

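In relation to the 12 immediate early and dissociation genes, Ccn2 stood at 3.68 ± 2.33 TPM per 100 TPM in ctrl cardiomyocytes, 9.93 ± 2.72 in angII and 16.9 ± 8.29 in angII+VEGFC, while the summed level of those genes was 9628 to 13440, 9149 to 14690 and 9654 to 11940 TPM. In heart LECs the same ratio was 0.498 ± 0.060, 0.769 ± 0.16 and 1.038 ± 0.29. Ccn1 stood at 5.95 ± 0.79, 7.61 ± 0.58 and 8.44 ± 0.92 TPM per 100 TPM in cardiomyocytes.

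The family's summed level in cardiomyocytes was 1176 ± 309 TPM in ctrl, 2338 ± 358 in angII and 3144 ± 1228 in angII+VEGFC. In heart BECs it was 1955 ± 256, 1510 ± 167 and 1649 ± 73.6 TPM.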
